A study of Mus musculus with 15 samples.

Results

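The genes described here encode the mitochondrial ribosome and the respiratory chain. They were taken by symbol from the protein-coding genes of RefSeq on mm10 (GRCm38.p6): every gene whose symbol starts with Mrpl, Mrps, Nduf, Uqcr, Cox4, Cox5, Cox6, Cox7, Cox8, Sdh or Atp5. This gave 178 of 21887 coding genes. The rule uses symbols alone and no measured value, but the group was chosen with earlier results of these data known. In at least 1 of 3 organ lists, 49 of the 178 overlapped a p53 ChIP-seq region or had one less than 5 kb away. The other 129 had none. Shares over all coding genes are given below for each list. The share with a region in any of the 3 lists was not counted over all coding genes, so the 49 has no background.

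The study used ChIP-seq of p53, the stress-activated transcription factor encoded by Trp53, in liver, spleen and thymus of mice with a wild-type genotype. ChIP-seq reads out where in the genome a protein sits on chromatin. Each organ has 5 libraries, of which 2 are untreated, 2 were collected 3 h post X-irradiation with 2 Gy and 1 is input chromatin. The authors deposited a single list of scored regions per organ, named for irradiation and IgG, which the labels attach to all 5 libraries. The sources used here do not say which of these libraries entered a list, so each organ is 1 measurement with no replicate error, and irradiated and untreated mice cannot be compared. The lists held 3872 regions in liver, 2604 in spleen and 2405 in thymus, in bulk tissue that was not checked against cell type markers, since regions carry no expression. Read depth is unknown. The scale of the scores is not given either, so a score is used here only as its percentile within its own list, where 100 is the highest. No p-values are given: counts are set beside the share of other coding genes.

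Mitochondria make ATP by passing electrons from NADH and succinate through complexes I, II, III and IV, which build a proton gradient that drives ATP synthase. Most subunits are encoded in the nucleus, while a small set is encoded in mitochondrial DNA and made by mitochondrial ribosomes, whose proteins are nuclear-encoded too. In many tissues the promoters of these nuclear genes are served by NRF1, by ETS family factors such as GABP, and by YY1, SP1 and CREB. p53 is known to affect respiration through other genes, such as Sco2, which helps to assemble complex IV.

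Mitochondrial ribosome and respiratory chain genes carried a region more often than other coding genes in all 3 lists. In liver 48 of 178 had one (27.0%, exact Clopper-Pearson 95% interval 20.6 to 34.1), in spleen 25 (14.0%, 9.30 to 20.03) and in thymus 23 (12.9%, 8.37 to 18.8). Over all coding genes the shares were 15.2% (liver), 8.11% (spleen) and 7.17% (thymus). The mitochondrial genes are short, with a median length of 7502.5 bp against 17322 bp for other coding genes. Other coding genes weighted to the same deciles of length had a region in 12.2%, 5.48% and 4.72% of cases, which corresponds to 21.8, 9.75 and 8.40 genes of 178. The ratios to these shares were 2.20 in liver (1.68 to 2.79), 2.56 in spleen (1.70 to 3.66) and 2.74 in thymus (1.77 to 3.97). The intervals treat genes as independent, hold the comparison share fixed and cover counting error only. The mitochondrial genes also had closer neighbours: 140 of 178 (78.7%) had another coding gene within 5 kb, against 48.9% of other coding genes. With length and number of neighbours weighted together, the ratios were 1.83, 2.27 and 2.48.

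**Figure D1:**
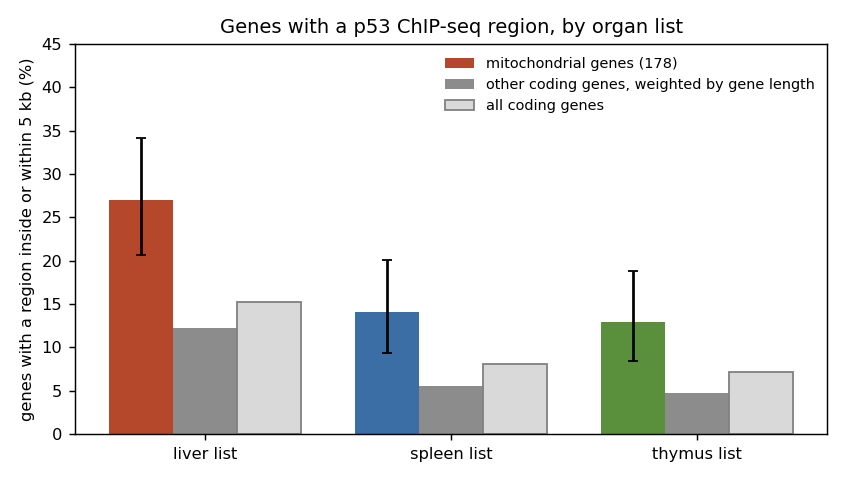
Share of genes with a region inside or within 5 kb (vertical axis, percent) for each organ list. Coloured bars are the 178 mitochondrial genes with exact 95% intervals, dark grey bars are other coding genes weighted to the same gene lengths, and light grey bars are all coding genes. The coloured bar is the highest in each list, at 27.0%, 14.0% and 12.9%.

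Ribosomal and respiratory chain genes both had regions above their length-weighted shares. Of the 78 genes with Mrpl or Mrps symbols, 19 had a liver region (24.4%, length-weighted share 12.4%). In spleen 13 had one (16.7%, length-weighted share 5.54%) and in thymus 12 (15.4%, 4.79%). Of the 100 respiratory chain and ATP synthase genes, assembly factors included, 29 had a liver region (29.0%, length-weighted share 12.1%). In spleen 12 had one (12%, length-weighted share 5.43%) and in thymus 11 (11%, 4.66%). The large ribosomal subunit had 10 of 49 genes with a spleen region (20.4%, length-weighted share 5.07%) and 9 with a thymus region (18.4%, 4.37%). The small subunit had 3 of 29 in each (10.3%, length-weighted shares 6.35% and 5.50%), and the difference between the subunits was not tested. Complex I subunits had 14 of 41 in liver (34.1%, length-weighted share 12.5%), 5 in spleen (12.2%, 5.53%) and 6 in thymus (14.6%, 4.70%). Complex II with its assembly factors had 3 of 8 in liver (37.5%, length-weighted share 14.9%) and complex III 2 of 8 (25%, 11.8%). In spleen and thymus complex II had 2 of 8 each (25%, length-weighted shares 7.24% and 6.46%). Complex III had 2 of 8 in spleen (25%, 5.01%) and 1 in thymus (12.5%, 4.33%). Complex IV had 4 of 18 in liver (22.2%, 10.2%) and ATP synthase 5 of 17 (29.4%, 11.4%). In spleen and thymus complex IV had 1 of 18 each (5.56%, length-weighted shares 4.53% and 3.83%). ATP synthase had 2 of 17 in spleen (11.8%, 4.90%) and 1 in thymus (5.88%, 4.17%). Of the 8 complex I assembly factors, 1 had a region, in liver alone (12.5%, length-weighted share 13.7%). The genes with no region in any list numbered 35 in the large subunit, 23 in the small subunit, 27 among complex I subunits, 7 among its assembly factors, 5 in complex II, 6 in complex III, 14 in complex IV and 12 in ATP synthase.

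In each list, most pairs of a mitochondrial gene and a region lay within 500 bp of the gene's start. RefSeq promoter windows, each giving a start and a strand, were matched for 151 of the 178 genes. Of these, 38 had a liver region within 500 bp of their own start (25.2%), against a length-weighted 7.87% of other coding genes with such a window, a ratio of 3.20. In spleen and thymus 14 of the 151 had one (9.27%), against 2.23% and 1.95%, ratios of 4.16 and 4.75. Counted as pairs of a gene and a region, 38 of 53 pairs in liver lay within 500 bp of the start (71.7%), against 52.9% of pairs at other coding genes. The shares were 58.3% of 24 pairs against 29.3% in spleen, and 60.9% of 23 pairs against 27.5% in thymus. The region covered the start itself in 26, 11 and 10 pairs. For the pairs within 500 bp, the midpoint lay at a median of -33 bp from the start in liver, -26 bp in spleen and -37 bp in thymus, where negative values are upstream; at other coding genes it lay at -37.5, -41.5 and -40 bp. Regions more than 500 bp from every annotated coding start were found for 11 members in liver (6.18%, length-weighted share 4.65%), 11 in spleen (6.18% against 3.24%) and 8 in thymus (4.49% against 2.83%). These counts include Mrpl54, Mrpl15 and Mrps35, which have no promoter window, so the distance to their own starts is unknown. Over the 151 genes with a window they were 9 (5.96%, length-weighted share 3.39%), 8 (5.30% against 2.79%) and 7 (4.64% against 2.50%).

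**Figure D2:**
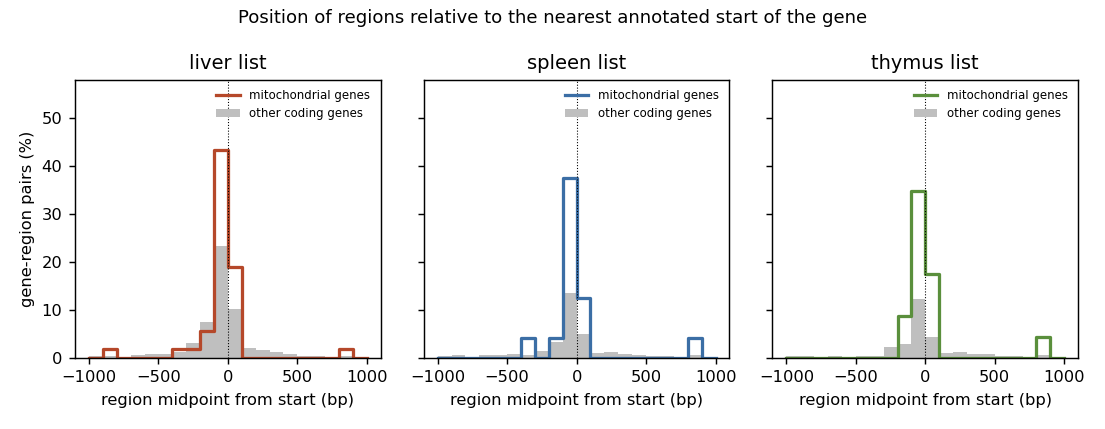
Distance of region midpoints from the nearest annotated start of the gene (horizontal axis, bp, upstream negative) as a share of all gene and region pairs of that list (vertical axis, percent, bins of 100 bp). Coloured lines are the mitochondrial genes and grey bars other coding genes. The highest bin of the mitochondrial genes, from -100 to 0 bp, holds 43.4% of pairs in liver, 37.5% in spleen and 34.8% in thymus.

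The promoter sequences of 8 members with such regions follow. They are the 250 bases before the annotated start, from RefSeq (GRCm38.p6), written 5′ to 3′ on the strand of the gene. The first 5 have the highest liver percentiles among regions at a member's own start, Ndufaf4 was added for its NRF1 letters, and Mrps9 and Mrpl44 are the windows under a liver region that hold a p53 decamer. The window of Uqcrc1 holds NRF1 letters only after the start, that of Mrps9 has TGCGCA right after the start, and in Ndufb10 TGCGCA spans the start, so its capitals are cut. Capitals mark the letters GCGCATG or TGCGCA on either strand, which are parts of the NRF1 motif, and in Mrps9 and Mrpl44 also the p53 decamer, which is the 10-base unit whose repeat makes a full p53 response element.
Mrpl32: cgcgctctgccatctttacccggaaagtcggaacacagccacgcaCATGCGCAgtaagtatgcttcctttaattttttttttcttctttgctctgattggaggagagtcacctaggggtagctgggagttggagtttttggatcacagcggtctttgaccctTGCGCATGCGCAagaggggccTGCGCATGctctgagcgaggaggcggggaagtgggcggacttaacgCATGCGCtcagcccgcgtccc
Ndufb10: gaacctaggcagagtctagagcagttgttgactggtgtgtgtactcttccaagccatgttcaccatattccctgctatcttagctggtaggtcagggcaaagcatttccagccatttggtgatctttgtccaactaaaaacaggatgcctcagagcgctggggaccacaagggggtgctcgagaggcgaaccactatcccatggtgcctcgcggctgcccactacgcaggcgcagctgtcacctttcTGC
Uqcrc1: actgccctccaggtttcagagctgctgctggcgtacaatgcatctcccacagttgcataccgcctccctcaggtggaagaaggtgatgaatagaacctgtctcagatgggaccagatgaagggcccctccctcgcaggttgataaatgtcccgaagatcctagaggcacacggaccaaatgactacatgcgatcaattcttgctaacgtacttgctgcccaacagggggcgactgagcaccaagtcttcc
Sdha: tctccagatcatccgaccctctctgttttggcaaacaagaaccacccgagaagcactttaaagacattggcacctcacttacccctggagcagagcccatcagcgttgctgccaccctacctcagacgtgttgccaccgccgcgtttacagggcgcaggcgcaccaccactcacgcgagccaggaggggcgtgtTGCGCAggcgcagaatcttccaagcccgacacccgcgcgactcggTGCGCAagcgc
Sdhaf4: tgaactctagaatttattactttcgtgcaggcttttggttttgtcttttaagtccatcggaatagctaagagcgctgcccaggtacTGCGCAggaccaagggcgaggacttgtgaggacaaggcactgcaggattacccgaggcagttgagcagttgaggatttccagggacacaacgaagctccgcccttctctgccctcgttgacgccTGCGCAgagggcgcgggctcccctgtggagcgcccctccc
Ndufaf4: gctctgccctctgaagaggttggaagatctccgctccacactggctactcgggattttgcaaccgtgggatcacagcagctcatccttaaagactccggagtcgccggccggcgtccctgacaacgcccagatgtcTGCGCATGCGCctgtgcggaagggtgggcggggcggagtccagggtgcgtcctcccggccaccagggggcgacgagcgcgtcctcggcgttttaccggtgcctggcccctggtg
Mrps9: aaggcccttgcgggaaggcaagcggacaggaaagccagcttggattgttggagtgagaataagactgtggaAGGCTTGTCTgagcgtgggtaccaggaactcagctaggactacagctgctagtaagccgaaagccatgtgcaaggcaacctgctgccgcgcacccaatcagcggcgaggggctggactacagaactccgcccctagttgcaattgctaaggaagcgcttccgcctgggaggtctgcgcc
Mrpl44: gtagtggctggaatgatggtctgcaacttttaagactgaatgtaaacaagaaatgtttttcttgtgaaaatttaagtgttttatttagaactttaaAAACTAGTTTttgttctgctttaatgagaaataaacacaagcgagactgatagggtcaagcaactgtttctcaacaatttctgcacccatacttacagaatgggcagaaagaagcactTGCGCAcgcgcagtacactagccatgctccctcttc
In the same order they lie at chr13:14613038-14613287 on the minus strand, chr17:24724424-24724673 (minus), chr9:108936398-108936647 (plus), chr13:74350241-74350490 (minus), chr1:24005641-24005890 (minus), chr4:24897833-24898082 (plus), chr1:42850983-42851232 (plus) and chr1:79775768-79776017 (plus).

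Motif letters were counted on both strands of the whole 300-base window, 250 bases before to 50 after the start. For NRF1 the letters were GCGCATG. ETS factors, the family of GABP, were searched for as CCGGAAG. YY1 was searched for as AAGATGG and SP1 as GGGCGG. The CCAAT box, the site of the factor NF-Y, was searched for by these letters. CREB was searched for by its element TGACGTC. The p53 decamer had to match its consensus with no mismatch. TGCGCA, named the NRF1 core here, was added after the sequences had been seen, and it overlaps GCGCATG wherever a T precedes the latter. A match is a run of letters and was not shown to be bound. NRF1 letters were found in 14 of the 38 mitochondrial windows that a liver region touched (36.8%) and in 9 of the 124 that none touched (7.26%), against 4.80% of all coding windows. TGCGCA was found in 63.2% of touched and 16.1% of untouched mitochondrial windows, and in 9.74% of all coding windows. Other genes showed the same order: 26.6% of touched and 3.05% of untouched windows held GCGCATG, and 51.8% and 6.37% held TGCGCA. The order is thus not particular to mitochondrial genes. Touched windows held a median of 23.5 CpG dinucleotides in mitochondrial genes against 18.5 in untouched ones, and 29 against 11 in other genes; GCGCATG and TGCGCA each contain CpG. The part of CpG content in these shares was not tested.

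ETS, YY1 and CCAAT letters were less frequent in touched than in untouched mitochondrial windows, and SP1 and CREB letters more frequent. ETS letters were in 7 of 38 touched mitochondrial windows (18.4%) and 41 of 124 untouched ones (33.1%), against 11.6% of all coding windows. In other genes the order was the opposite, at 23.4% of touched and 10.5% of untouched windows. YY1 letters were in 7.89% of touched and 17.7% of untouched mitochondrial windows (6.24% of all), and the CCAAT box in 28.9% and 44.4% (38.2% of all). SP1 letters were in 57.9% and 46.0% (46.2% of all) and CREB letters in 10.5% and 6.45% (3.84% of all). The 4 touched windows with CREB letters include both windows of Ndufa5, which overlap and share the match. In other genes YY1 letters had the opposite order, at 7.98% of touched and 6.03% of untouched windows. There the CCAAT box (29.0% and 38.9%), SP1 letters (76.0% and 43.9%) and CREB letters (6.45% and 3.61%) had the same order as in mitochondrial genes. The p53 decamer was in 2 of 38 touched (5.26%) and 9 of 124 untouched (7.26%) mitochondrial windows, against 7.37% of all coding windows, a share no higher under liver regions. Spleen regions touched 0 of 11 mitochondrial windows with the decamer and 14 of 151 without, and thymus regions 1 and 13. In other genes, liver regions touched 6.74% of windows with it and 7.15% without. There the shares were 3.02% and 1.99% in spleen, and 2.50% and 1.65% in thymus. Not every match lay in the region itself. Of the 24 touched mitochondrial windows with TGCGCA, 19 had a match that shared a base with the liver region (79.2%), against 84.9% of 779 windows of other genes; the 5 without were those of Mrpl44, Ndufaf4, Ndufb4, Ndufb6 and Ndufs6. For GCGCATG it was 11 of 14, the 3 without being those of Mrpl39, Ndufaf4 and Ndufb6. The p53 decamers at -179 to -170 in Mrps9 and -154 to -145 in Mrpl44 were outside the liver regions, which start at -32 and -17 bp, while 54 of 105 windows of other genes had theirs in the region. Differences between these shares were not tested.

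**Figure D3:**
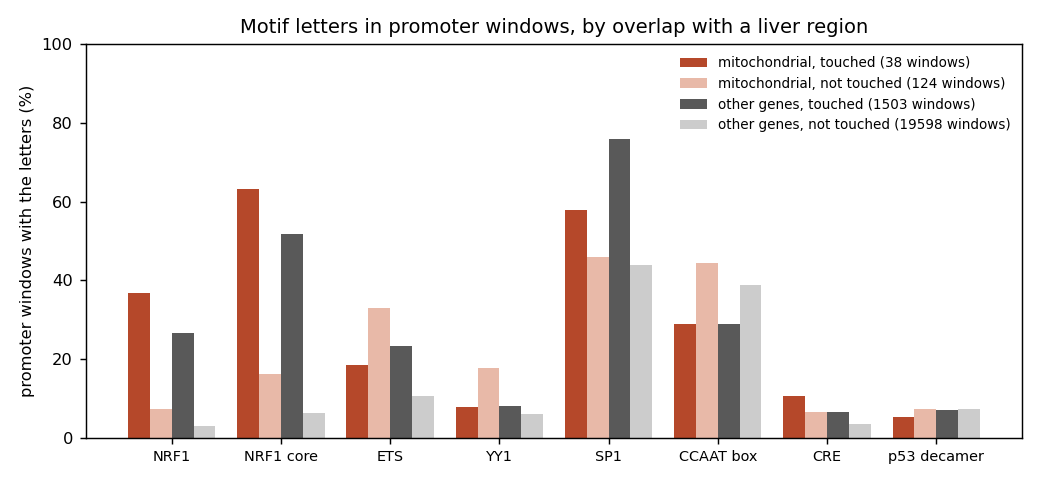
Share of promoter windows that hold each set of motif letters (vertical axis, percent), split by whether a liver region touches the window. Red bars are mitochondrial genes (38 touched and 124 untouched windows) and grey bars other coding genes (1503 and 19598). NRF1 and NRF1 core bars are higher in touched windows in both kinds of gene, and the p53 decamer bars lie between 5.26% and 7.41%.

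Large ribosomal subunit genes ranged from regions at the top of every list to regions near the bottom. Mrpl32 had a region of 350 bp over its start (chromosome 13, 14612901 to 14613250; -213 to 136 bp from the start), with percentiles of 96.6 (liver), 72.9 (spleen) and 15.8 (thymus). Its window holds 5 GCGCATG matches, and its neighbour Psma2, a proteasome subunit gene, is also within 5 kb. Mrpl45 had a pair of regions in all 3 lists. The stronger lay 4473 bp outside the gene within the lncRNA gene Gm31005 (chromosome 11, 97310001 to 97310450) at 97.2, 95.4 and 92.8, and the weaker covered the start (97315501 to 97315850) at 23.6, 10.1 and 46.2. The region at Mrpl36 (chromosome 13, 73328401 to 73328550) is the same as that on the start of Ndufs6, a complex I subunit gene; it ranked at 87.3 in liver and 1.04 in thymus and is not in the spleen list. Mrpl54 (80.2 in liver, 6.47 in spleen) and Mrpl49 (68.7 and 11.8) had regions in these 2 lists, both also within 5 kb of other coding genes.

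Mrpl17 had a start-site region above the middle of both lists that hold it, at 56.7 in liver and 52.4 in thymus. Mrpl55 ranked at 55.9, 18.05 and 20.5 with a region 2063 bp outside the gene, at the start of another coding gene. Mrpl14 had its best liver region on the start (54.5), in that list alone, and another region 772 bp outside, inside Tmem63b, in all 3 lists (25.9, 54.9 and 17.4). Start-site regions were found in liver and spleen for Mrpl39 (37.0 and 17.2) and Mrpl12 (8.45 and 4.28), in liver and thymus for Mrpl44 (40.6 and 14.8) and Mrpl9 (20.7 and 45.7), and in all 3 lists for Mrpl30 (29.7, 11.8 and 10.1). Mrpl12 is known to bind the mitochondrial RNA polymerase. Mrpl15 is the sole member bound in spleen but not liver; its region lay 2851 bp outside the gene (18.8). Of the 13 large-subunit genes in the liver list, 8 ranked above the middle of the list there; in spleen 3 of 10 and in thymus 2 of 9 did so.

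Small ribosomal subunit genes included the highest percentile of the whole group. A region of 1550 bp, 4032 bp outside Mrps31 and within 5 kb of no other annotated gene (chromosome 8, 22433701 to 22435250), had percentiles of 98.3 (liver), 95.4 (spleen) and 99.8 (thymus). Mrps35 had a region 2395 bp outside the gene (chromosome 6, 147073301 to 147073650) at 85.1, 41.7 and 71.9, which is nearer to Mansc4. Mrps14 had one 2615 bp outside, inside Cacybp, at 20.5, 43.7 and 37.3. These 3 are all of the small-subunit genes with regions in spleen or thymus, and all 3 regions lay outside the gene and over 500 bp from any start in the promoter table, in which Mrps35 itself is missing. The start-site regions of this subunit were in liver alone, at 81.6 for Mrps26, 39.2 for Mrps18b and 26.5 for Mrps9.

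In complex I, the NADH dehydrogenase, 12 of the 14 bound subunit genes had a region within 500 bp of their own start; the others were Ndufa7 and Ndufa13. Ndufb10 ranked at 92.9 in liver and 14.8 in spleen (chromosome 17, 24724301 to 24724550; -127 to 122 bp from the start), with the ribosomal protein gene Rps2 also in reach. Ndufa5 ranked at 81.0 and 6.91 in the same lists, and Ndufa4 at 26.1 and 5.80; the protein of Ndufa4 is now counted as part of complex IV. In liver and thymus, Ndufb4 ranked at 78.4 and 21.8, Ndufs5 at 20.7 and 31.6 and Ndufa10 at 12.3 and 6.40. Ndufv2, an iron-sulfur subunit gene, had its start-site region in all 3 lists, at 42.4, 9.14 and 29.9. Ndufa8 ranked at 74.5 in the liver list alone. The highest spleen percentile of complex I was that of Ndufa7, at 87.4, for a region 185 bp past the 3′ end of the gene (chromosome 17, 33838501 to 33838650) that ranked at 20.5 in liver and 22.5 in thymus. Ndufab1, the acyl carrier protein gene (15.0), Ndufb6 (20.8), Ndufa6 (16.0 at its start and 30.0 at another coding start), Ndufa13 (43.2) and the assembly factor gene Ndufaf4 (19.1) had liver regions alone.

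Complexes II and III showed wide gaps in rank between liver and the lymphoid organs, as shared regions at coding starts did in general. Over all 408 such regions in liver and spleen the median percentiles were 66.2 and 13.9. Over the 343 in liver and thymus they were 60.8 and 15.8. Sdha encodes the catalytic flavoprotein of succinate dehydrogenase; its start-site region (chromosome 13, 74350101 to 74350450; -210 to 139 bp) had percentiles of 91.0 (liver), 8.18 (spleen) and 3.18 (thymus). Sdhaf4, an assembly factor for that flavoprotein, had a start-site region (chromosome 1, 24005501 to 24005750) at 90.8, 2.76 and 4.43. Sdhd, a membrane anchor subunit, had one in liver alone at 79.0, with the import chaperone gene Timm8b also in reach. Uqcrc1, a core subunit of complex III, ranked at 92.5 in liver and 8.60 in spleen (chromosome 9, 108936601 to 108936750; -47 to 102 bp). Uqcr11 had a region on its start at 36.7, 4.95 and 5.32, and a wider one of 850 bp, 3347 bp outside and at the start of Mbd3, at 91.9 in liver and 2.80 in spleen. Of these 5 genes, the 4 with lymphoid regions all ranked below the 10th percentile there.

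Complex IV and ATP synthase genes had mostly liver regions. The complex IV shares in spleen and thymus (5.56% each) were close to the length-weighted 4.53% and 3.83%. Cox7a2l, which helps to join complexes III and IV, ranked at 73.1, Cox6a1 at 71.7 and Cox5b at 61.8, each within 500 bp of its start and in the liver list alone. The one complex IV gene in the lymphoid lists was Cox6b2, the testis form of a subunit, whose region inside the gene (chromosome 7, 4752101 to 4752350), 744 bp past the start, had percentiles of 11.4 (liver), 60.8 (spleen) and 84.6 (thymus). Among ATP synthase genes, Atp5c1, the gamma subunit of the central stalk, ranked at 84.7 on its start in liver. Atp5d, the delta subunit, had a liver region at 74.7 that lay inside the gene span but 725 bp upstream of its nearest start in the promoter table, and another 4973 bp outside, inside Midn, at 23.0 in liver and 26.1 in spleen. Atp5g2, a gene of the rotor ring, had a liver region on its start at 49.01 and another 4854 bp outside in all 3 lists, at 17.2, 60.4 and 48.3. Atp5g3, another ring gene, and Atp5o, of the stator stalk, had narrow start-site regions of 50 bp in liver, at 9.12 and 8.47.

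**Figure D4:**
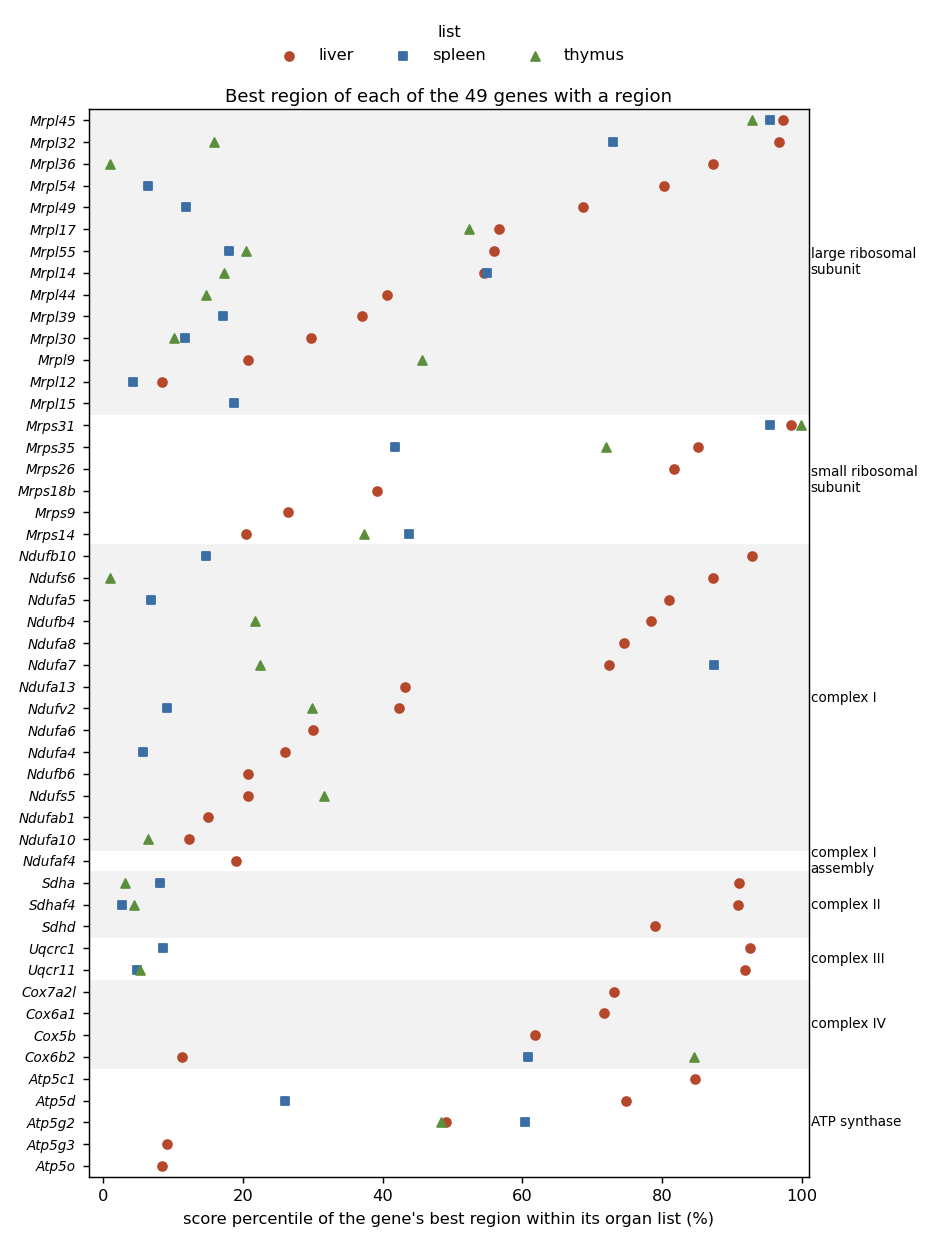
Score percentile within the organ list (horizontal axis, percent) of the best region of each of the 49 genes with a region (rows, grouped by complex and ordered by liver percentile); circles are liver, squares spleen and triangles thymus, and a missing symbol means no region in that list. Mrpl45 and Mrps31 lie above 90 in all 3 lists, while Sdha, Sdhaf4, Uqcrc1 and Uqcr11 lie above 90 in liver and below 10 wherever they appear in spleen or thymus.

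Member regions as a whole ranked like other regions in liver and lower in the lymphoid lists. The median percentile was 46.1 (54 liver regions), 14.8 (27 spleen regions) and 22.5 (23 thymus regions), against 50.7, 42.04 and 44.8 for regions tied to any coding gene. The medians differed by position. Within 500 bp of a coding start, the medians for member regions were 51.7 (42 regions), 8.87 (16) and 15.8 (15), and those for all such regions were 53.8, 13.8 and 15.9. Away from coding starts, the medians for member regions were 34.5 (12), 54.9 (11) and 60.1 (8). Those for regions tied to any coding gene were 47.7, 53.1 and 55.6, and those for all regions 47.9, 55.8 and 55.8. Without Mrpl54, Mrpl15 and Mrps35 the member medians were 24.4 (10), 60.6 (8) and 48.3 (7). At or above the 90th percentile were 8 member regions in liver (14.8%), 2 in spleen (7.41%) and 2 in thymus (8.70%), where an even spread over the list gives about 10%.

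For regions in both the liver and the spleen list, all 16 member regions at a coding start ranked higher in liver, with medians of 62.3 and 8.87. Over all such regions 91.2% of 408 did so (medians 66.2 and 13.9), so the mitochondrial genes are near the rate of start-site regions in general. Of the 10 shared member regions away from starts, 4 ranked higher in liver (medians 24.4 and 57.6), against 42.7% of 1960. For liver and thymus, 12 of 15 at starts ranked higher in liver (85.4% of all 343) and 3 of 8 away from starts (42.3% of 1836). Without Mrpl54 and Mrps35, the counts away from starts were 2 of 8 for spleen and 2 of 7 for thymus. The exceptions at starts were Mrpl9, Mrpl45 and Ndufs5, with thymus percentiles of 45.7, 46.2 and 31.6 against 20.7, 23.6 and 20.7 in liver.

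**Figure D5:**
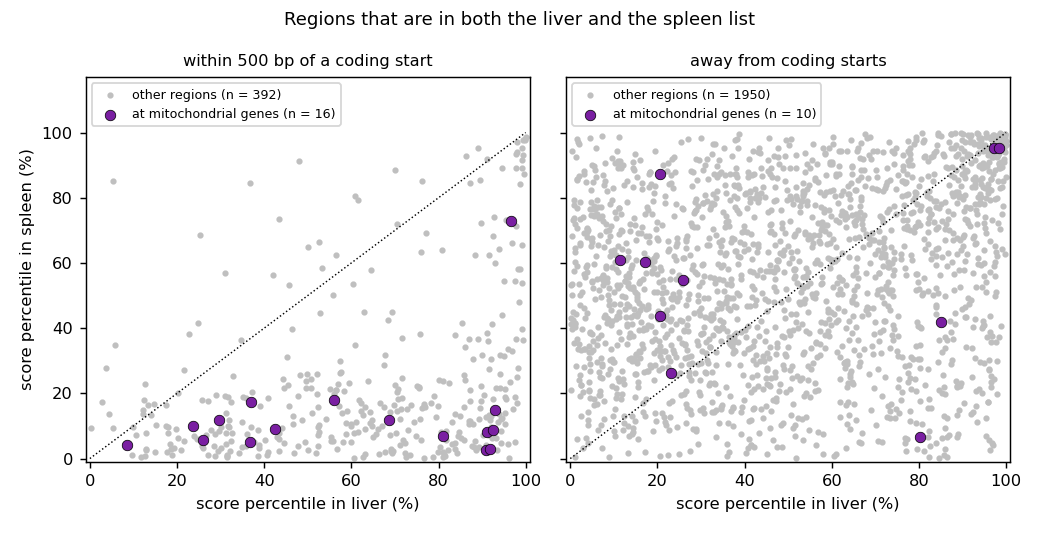
Score percentile in liver (horizontal axis) against spleen (vertical axis) for regions that are in both lists, within 500 bp of a coding start (left) and away from coding starts (right). Purple points are regions at mitochondrial genes (16 and 10), grey points other regions, and the dotted line marks equal percentiles. All 16 purple points on the left lie below the line, 15 of them under a spleen percentile of 20, and 4 of 10 on the right do.

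By list, 15 members had a region in all 3 organs. A further 9 shared liver with spleen only and 8 liver with thymus only, 16 were in the liver list alone and 1 in the spleen list alone. The same combinations over all coding genes are not given here, only the overlaps between pairs of lists. Members bound in spleen were also bound in liver in 24 of 25 cases (96.0%), and those bound in thymus in 23 of 23, near the 95.04% and 94.97% over all coding genes. From the other side, 24 of 48 liver members were in the spleen list and 23 (47.9%) in the thymus list, against 50.6% and 44.8% of all coding genes with a liver region. Spleen and thymus shared 15 members, 60.0% of the spleen members and 65.2% of the thymus members, against 72.3% and 81.7% over all coding genes.

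Many of the regions cannot be given to a single gene. Of the 55 distinct regions, 29 were shared with a further coding gene inside the same 5 kb reach, and 24 of the 49 bound members had a region within reach of no other coding gene. At coding starts in liver, 20 of 42 member regions reached more than 1 coding gene (47.6%), against 35.8% of 1387 start-site regions tied to other coding genes; the shares were 68.8% against 32.7% in spleen and 46.7% against 32.8% in thymus. Away from coding starts the gap was wider, with 9 of 12 in liver (75% against 13.9%). In spleen the count was 7 of 11 (63.6% against 10.9%) and in thymus 5 of 8 (62.5% against 9.77%). Member regions were picked for reaching a member, and a region that reaches more coding genes has more chances to do so. What this adds to these shares or to the member shares was not tested. Weighted for length and number of neighbours, the member ratios were 1.83 (liver), 2.27 (spleen) and 2.48 (thymus). Counting a region only for its nearest coding gene left 41 members (liver), 18 (spleen) and 18 (thymus), with ratios to the length-weighted share of 2.46, 2.39 and 2.69. Just inside the 5 kb limit were regions of Atp5d (4973 bp), Atp5g2 (4854 bp) and Ndufa7 (4785 bp, a liver region at 72.4); all 3 genes have a nearer liver region, and Ndufa7 has one in every list, but the spleen calls of Atp5d and Atp5g2 and the thymus call of Atp5g2 rest on these regions alone. Just outside it lay a region 5355 bp from Cox6c, with percentiles of 68.7 (liver), 98.8 (spleen) and 97.5 (thymus), and one 6684 bp from Mrps21, at 89.3, 3.49 and 9.73.

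Other genes of the same processes were counted from lists of names, which were chosen with earlier results of these data known. A further 35 genes of mitochondrial translation were tRNA synthetases, translation factors, ribosome assembly factors and ribosomal proteins with other names. Of these, 11 had a liver region (31.4%, length-weighted share 16.0%), 8 a spleen region (22.9%, 8.06%) and 7 a thymus region (20%, 6.94%). They included Vars2, the mitochondrial valyl-tRNA synthetase gene, at 92.8, 74.0 and 7.90, and Mars2, the methionyl one, at 45.8, 53.3 and 68.9. Of 32 respiratory chain genes with other symbols, mostly assembly factors and cytochrome c genes, 4 had a liver region (12.5%, length-weighted share 14.7%). In spleen 4 had one (12.5%, length-weighted share 7.62%) and in thymus 3 (9.375%, 6.69%), above the shares there. Lyrm7, a complex III assembly factor gene, led these at 80.0, 83.7 and 88.2, and Sco1, a copper chaperone gene, ranked at 28.3, 71.1 and 79.0; both liver regions lay inside the gene, away from starts. Of 22 regulators of mitochondrial gene expression, 5 had a liver region (22.7%, length-weighted share 16.7%). In spleen 3 had one (13.6%, length-weighted share 8.64%). In thymus 1 had one (4.55%), below the length-weighted share of 7.57%. Polrmt, the mitochondrial RNA polymerase gene, ranked at 80.0 in liver and 2.04 in spleen, and Nrf1, which encodes NRF1, at 58.5 in liver alone.

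The p53 targets, from lists that were also chosen with earlier results known, gave a different scale. Of 20 reference targets, 18 were in the liver list, 18 in the spleen list and 16 in the thymus list, where the length-weighted shares were 14.4%, 6.63% and 5.58%. Of 13 p53-linked genes with mitochondrial or metabolic roles, 3 of which are also reference targets, the liver list held 6 (46.2%, length-weighted share 14.9%), the spleen list 4 (30.8%, 6.94%) and the thymus list 3 (23.1%, 6.07%). Bax and Bbc3 act on the mitochondrial outer membrane in apoptosis. Bax ranked at 99.9, 97.6 and 95.4, while Sco2, Fdxr, Gls2 and Rrm2b had no region within 5 kb. The cytosolic ribosome resembled the mitochondrial genes in liver, with 23 of 91 genes (25.3%, length-weighted share 9.10%), and had 10 in spleen (10.99%, 3.73%) and 6 in thymus (6.59%, 3.38%). Proteasome genes had 7, 4 and 2 of 40 (17.5%, 10% and 5%, length-weighted shares 14.4%, 6.60% and 5.71%). Differences between these lists were not tested.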

How the data were processed

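ChIP-seq regions were deposited as 3 headerless lists, 1 per organ, from a series of 15 libraries. Per the submitters' processing notes the build was mm10; for the aligner, the region caller and any pooling, nothing is given in the sources used here. Each region carries a score deposited by the authors, whose scale is not given; it was converted to a percentile within its list, with ties averaged. Regions were tied to RefSeq genes of GRCm38.p6 by at least 1 bp of overlap with the gene extended by 5 kb on both sides. Background shares are those of other coding genes in each decile of gene length, weighted to the deciles of the members. Start sites, strands and sequences came from RefSeq promoter windows of the same assembly. The members and gene lists were chosen with earlier results of these data known. The text names every member with a spleen or thymus region and the 20 with the highest liver percentiles; of the other 11 bound members, values are given as well, a choice made after they were seen. The code was tested on simulated data. Python 3.11.15, pandas 2.3.3, numpy 2.4.6 and SciPy 1.17.1 were used. Depth is unknown, so intervals cover counting error only.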

Additional observations from a re-analysis of the deposited data

How the results depend on the processing

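The ratio of the mitochondrial share to that of other coding genes stayed above 1 in every organ under the 15 alternatives tried. Requiring the region within 1 kb of either gene end gave 2.83 (liver), 3.68 (spleen) and 4.38 (thymus). Leaving out the assembly factors and Mrps36, which was treated as a non-subunit, left 165 genes with ratios of 2.30, 2.70 and 2.89. Keeping just the better-scored 50% of regions gave a thymus ratio of 1.70, from 5 genes. With 4 alternatives chosen after seeing the data, a region within 500 bp of the gene's own start gave 3.20, 4.16 and 4.75, regions away from coding starts gave 1.33 in liver and 1.59 in thymus, the same over genes with a promoter window gave 1.76, 1.90 and 1.85, and matching on length and promoter CpG count gave 1.74, 2.01 and 2.34. All other values lay within the intervals of the reported ratios. The cause of these shifts was not tested. No paired analysis was possible because the lists carry no values per library. For the same reason no library could be left out, and depth is unknown.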

Other observations

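The link between NRF1 letters and regions can also be read from the letters. Of the 44 mitochondrial windows with TGCGCA, a liver region touched 24 (54.5%), a spleen region 8 and a thymus region 10, against 14, 6 and 4 of the 118 windows without it (11.9% in liver). Over other coding genes, a liver region touched 38.4% of 2027 windows with TGCGCA and 3.80% of 19074 without. In the upper 20% of windows by CpG count (27 or more), the shares for other coding genes were 55.5% of 766 and 13.3% of 3588, and for mitochondrial genes 7 of 12 and 7 of 28. For mitochondrial genes in that upper 20%, a spleen region touched 1 of 12 windows with TGCGCA (8.33%) and 3 of 28 without (10.7%). That order is opposite to liver but rests on few windows. A thymus region touched 2 of the 12 (16.7%) and 2 of the 28 (7.14%), the same order as liver. With GCGCATG in place of TGCGCA, a liver region touched 6 of 6 mitochondrial windows with the letters and 8 of 34 without. In both spleen and thymus the counts were 1 of 6 (16.7%) and 3 of 34 (8.82%), so the spleen order differed with the letters used. For other coding genes there, the shares with and without TGCGCA were 15.5% and 3.65% in spleen and 12.5% and 3.15% in thymus. This split by CpG count and the choice of TGCGCA were made after the data were seen, and no test was run.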
